A study of Mus musculus with 134 samples.

Results

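Transcriptomes of mouse embryonic stem cells (mESCs) whose Aebp2 gene was cut with CRISPR/Cas9 were compared with those of unedited mESCs. The comparison holds the 4 expression libraries of the Aebp2 knockout (KO) clones KO1 and KO2 (2 libraries each) and 4 in vitro libraries (2 labelled vitro-37℃-5mins and 2 labelled vitro-RNA-300ng), 8 of the 54 bulk expression libraries in a series of 134 samples. The study used SET-seq, in which cytoplasmic RNA and antibody-targeted chromatin are taken from the same cells and an RNA/DNA hybrid is cut directly by the transposase Tn5. For the in vitro libraries, total RNA was purified on a column and its hybrid was tagmented in a tube, at 37 °C for 5 min in the first pair and from 300 ng of RNA in the second. The comparison asks which transcripts differ in cells that lack an intact Aebp2.

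All of these libraries carry the labels E14 (an mESC line), strain 129/Ola and untreated, and the cells grew in serum with leukemia inhibitory factor (LIF) on gelatin. The edited clones came from 2 guides, and which clone came from which guide is not given in the sources used here. Each clone stands for a single edited line, so whatever a clone carries besides the cut is part of its value. By the study's methods the KO libraries come from cytoplasmic RNA and the in vitro libraries from total RNA, whereas the labels give total RNA for both. Read by the methods, the RNA fraction and the knockout cannot be told apart in this comparison. For that reason the values of 4 further libraries are set beside it: SET-seq libraries of unedited cells, made from 1000 or 10000 cells with the same H3K27me3 antibody as the KO libraries, and called wild type (WT) SET-seq here. Comparisons that use them share either their in vitro or their KO libraries with the main one, so their values stand side by side and are not independent of it.

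Polycomb repressive complex 2 (PRC2) methylates lysine 27 of histone H3 and keeps developmental genes silent in mESCs. Its core is built from EZH1 or EZH2 (the catalytic subunits), EED (which reads the mark), SUZ12 (the scaffold) and the histone chaperones RBBP4 and RBBP7. AEBP2, a zinc finger protein, and JARID2 are accessory subunits of the form called PRC2.2, while the Polycomb-like proteins (PHF1, MTF2, PHF19) and EPOP belong to the form called PRC2.1.

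The designed guides show where the gene was meant to be cut. The guides are those of the study's list, printed 5′ to 3′ in lower case. The capitals mark the PAM, the 3 genomic bases that follow the guide. Each guide matched a single place on chromosome 6 of the mm9 (NCBIM37) genome.
Aebp2 sg#1: attcgctccatacatgtcgaTGG
Aebp2 sg#2: aacaggtgttcgtttgcttgTGG
The first lies at chr6:140582382-140582401 on the plus strand, with all 20 of its bases inside a coding exon (exon 2 of 10 in the longest coding transcript of the annotation). The second lies at chr6:140586176-140586195 on the same strand and crosses the start of the next exon, with 5 intronic and 15 exonic bases. Taking the cut at 3 bases from the PAM, the guides would cut after coding base 839 and coding base 870 of 1512. Both cuts fall in the coding part of 9 of the 13 coding transcripts annotated for the gene, and Aebp2 itself spans chr6:140571184-140626993. A small insertion or deletion at such a site can change the reading frame but need not remove the transcript, so the RNA level of Aebp2 is an indirect check of the edit. The study itself reports Sanger sequencing of its KO clones and a Western blot of parental and KO cells, neither of which was re-examined here.

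The 8 libraries held between 1178008 and 17042569 counted reads. Rn45s, the ribosomal RNA precursor gene, took 48.8 to 56.7% of the reads in the KO libraries and 17.4 to 36.0% in the in vitro libraries, and was removed before levels were scaled to each library's remaining total (CPM). Pearson's r between libraries, of log2 CPM over the genes tested, was 0.909 to 0.954 within the KO group, 0.845 to 0.982 within the in vitro group and 0.625 to 0.788 between the groups. Libraries of one condition differed by more than sampling noise in every pair (chi-square per degree of freedom 1.64 to 14.0), so none is a repeat deposit. Hprt, a purine salvage gene that the E14TG2a line is known to lack, was counted 0, 2, 0 and 0 times in the KO libraries and 0, 0, 1 and 0 times in the in vitro libraries. The in vitro libraries were picked as a control for that low Hprt, so it carries no test. In the WT SET-seq libraries Hprt stood at 291 to 410 CPM, against the description of the line, and every KO against WT value also sets Hprt-low against Hprt-positive libraries. The summed level of 8 mESC markers (Pou5f1, Sox2, Nanog, Zfp42, Esrrb, Dppa5a, Utf1 and Tdgf1) was 3632 to 4204 CPM in the KO and 3733 to 4164 CPM in the in vitro libraries. Primitive endoderm markers summed to 8.56 to 13.9 CPM in the KO and 6.43 to 18.6 CPM in the in vitro libraries, and fibroblast markers to 6.23 to 28.5 and 18.6 to 26.4 CPM, with Dcn at 0 in all 8. Trophoblast markers summed to 43.8 to 54.9 CPM against 29.2 to 38.4 CPM, with Eomes the highest of them (WT SET-seq 15.4 to 19.4 CPM). The part of these cell types in any result was not tested.

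Aebp2 was lower in the KO libraries, mainly through clone KO1. Its level was 15.7 and 15.0 CPM in KO1, 49.7 and 30.2 CPM in KO2, 84.6 and 82.2 CPM in the 37 °C libraries and 46.9 and 42.9 CPM in the 300 ng libraries. Both KO1 libraries lay below every in vitro library compared here, but the higher KO2 library lay above both 300 ng libraries, so the groups overlapped. The log2 fold change (KO over in vitro) was -1.17 (SE 0.37), with an adjusted p of 0.0178 from edgeR's quasi-likelihood test. With KO1 alone it was -2.04, and with KO2 alone -0.58, which missed the threshold. The fall also missed the threshold against the 300 ng libraries alone (-0.81), without KO1 replicate 1 (-0.95), without KO1 replicate 2 (-0.88) and without the first 37 °C library (-0.96). The WT SET-seq libraries held 61.5, 51.7, 65.5 and 76.0 CPM, all above the 4 KO libraries, and KO minus WT was -1.08 (adjusted p = 0.00286). Some other unedited SET-seq libraries of the series lay within the KO2 range, above KO1. Those with the H3K27me3 antibody from fewer cells held 38.9 and 34.7 CPM. Those from 10000 cells with no antibody in their label held 34.5 and 36.4 CPM. The unedited H3K4me3 SET-seq libraries held 55.7 to 67.3 CPM, above all KO libraries. Whether KO2 lay below unedited SET-seq cells thus depended on the libraries chosen. In bulk samples, fewer cells with the transcript and less transcript per cell cannot be told apart.

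**Figure D1:**
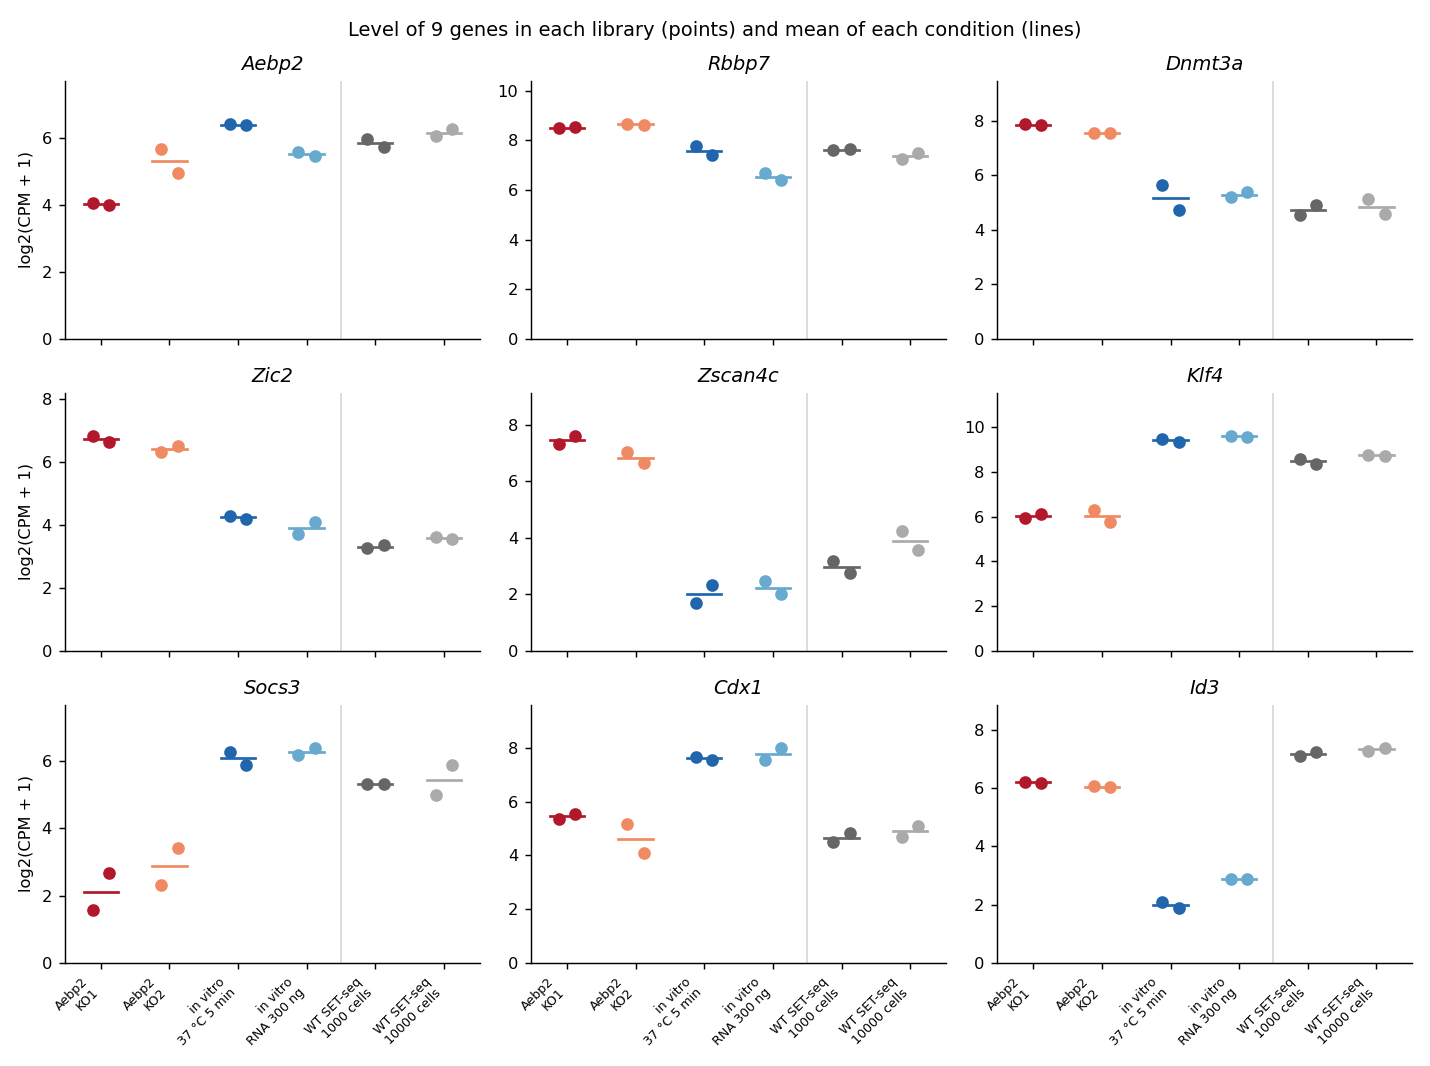
Level of 9 genes in each library, as log2(CPM + 1), with points for libraries and lines for the mean of the 2 libraries of a condition. The WT SET-seq libraries stand right of the grey line. Zic2 and Dnmt3a are high in the KO libraries alone, while Cdx1 is low and Id3 high in both KO and WT SET-seq libraries relative to the in vitro libraries.

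Of 25209 genes, 8655 had enough counts to be tested between KO and in vitro libraries. The filter asked for enough reads in as many libraries as 1 group holds. A gene with few reads in 1 group was therefore tested only when the other group was high, which sets its direction. This holds for most of the largest rises and falls named below. It also holds for other named genes with only a few CPM in 1 group. A gene was called when its adjusted p was under 0.05 and its log2 fold change was above 1 in size, and 2988 genes (34.5%) were called, 1370 higher in KO (15.8%) and 1618 lower (18.7%). The 4 KO and the 4 in vitro libraries did not overlap for 3923 genes (45.3%), with KO higher in 21% of the genes tested and lower in 24.4%. The median log2 fold change over all genes tested was -0.03, with quartiles of -0.76 and 0.66, and each list is read against these shares. WT SET-seq against the same in vitro libraries gave 4110 called genes of 10988 tested (37.4%, with 20.1% higher and 17.3% lower), and KO against WT SET-seq gave 2645 of 9124 (29%, with 13.4% higher and 15.6% lower). Libraries did not overlap for 51% of genes between WT and in vitro (30.1% higher, 20.9% lower) and for 50.8% between KO and WT (20.6% higher, 30.2% lower).

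**Figure D2:**
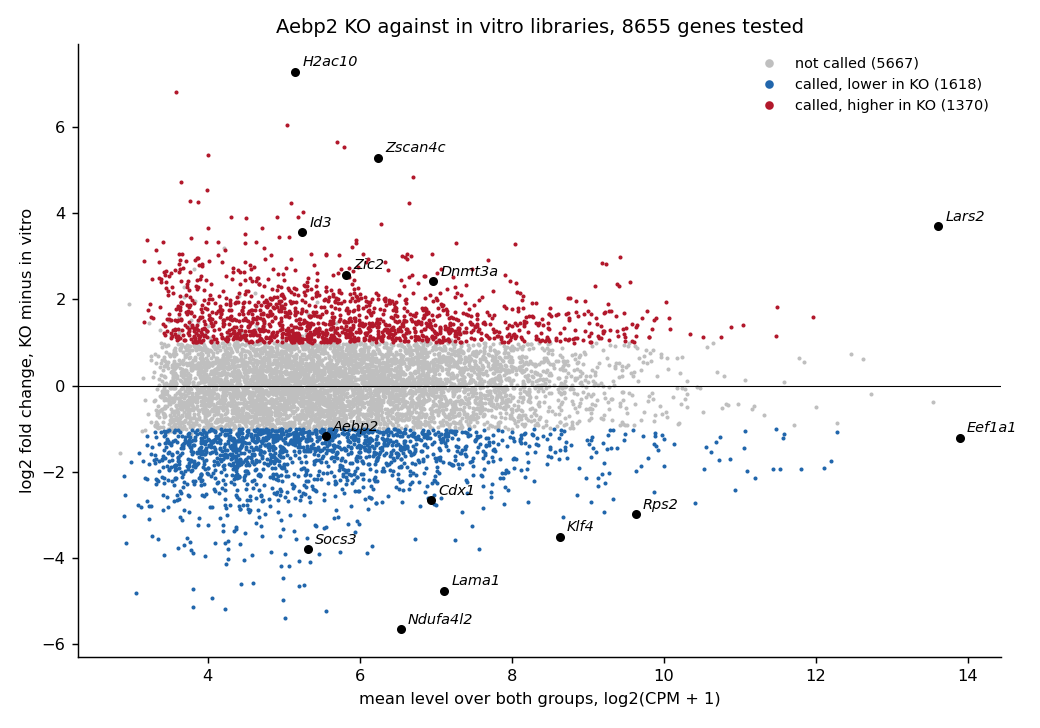
Log2 fold change (KO over in vitro) of the 8655 genes tested against their mean level, with called genes in colour and genes described in the text named. Called genes lie at every level, 1370 above and 1618 below.

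The direction of change differed with the GC content and length of the transcripts. In the fifth of genes with the lowest GC content of their exons (34.4 to 44.6%), 34.3% of genes were called higher and 3.47% lower, while in the fifth with the highest GC (56.1 to 73.0%) these shares were 5.14 and 38.4%. The median log2 fold change fell from 0.67 to -0.70 over the 5 bins. Over the bins of exon length it rose from -0.64 (96 to 1747 bases) to 0.52 (5344 to 104320 bases). Called-higher genes had a median of 4554 exon bases and 45.7% GC, and called-lower genes 2103 bases and 55.0% GC. In WT SET-seq against in vitro the GC bins ran the same way, from 0.49 to -0.43, but the length bins ran from 0.16 to -0.15. In KO against WT they ran from 0.26 to -0.26 with GC and from -0.78 to 0.73 with length. As alternatives, these trends were removed with an offset per library on exon length, on exon GC content, or on both, the last 2 chosen after seeing the data. With the GC offset 1889 of the 2988 genes were still called (63.2%), with the length offset 2118 (70.9%), and with both offsets 1575 (52.7%). Where an offset ended the call of a gene described, at least 1 such offset is given with it.

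**Figure D3:**
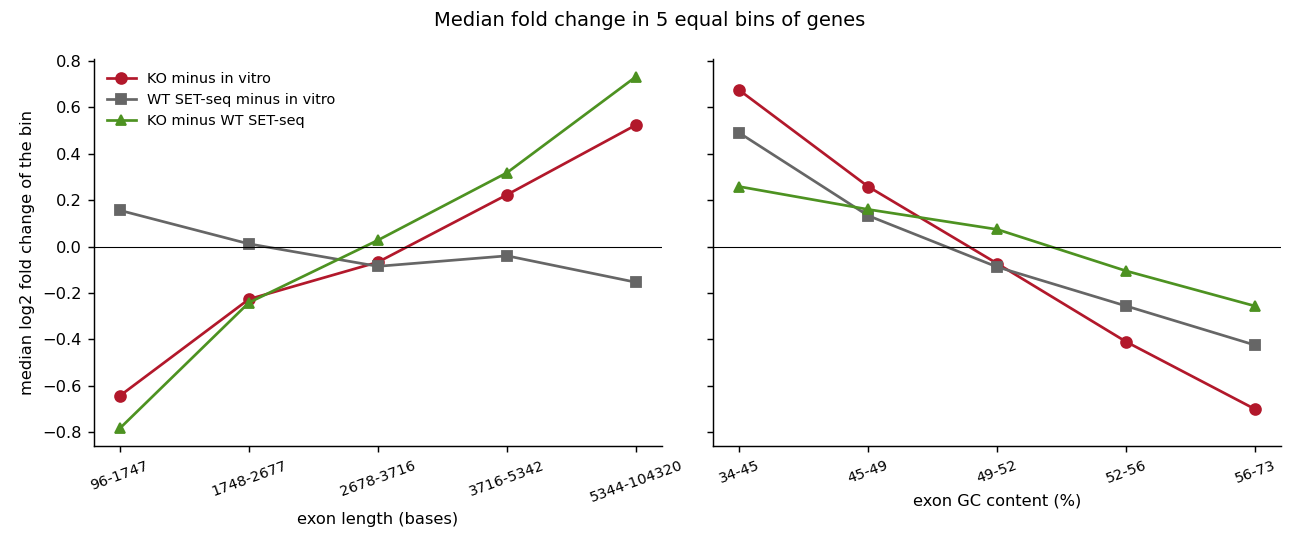
Median log2 fold change in 5 equal bins of exon GC content and of exon length, for KO minus in vitro, WT SET-seq minus in vitro and KO minus WT SET-seq. KO minus in vitro falls from 0.67 to -0.70 with GC and rises from -0.64 to 0.52 with length.

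Among the core subunits of PRC2, 2 of 6 were called higher and none lower, beside 15.8 and 18.7% over all genes. Rbbp7 (chrX:159198304-159217022) stood at 358, 368, 404 and 397 CPM in the KO libraries and at 215, 168, 101 and 82.6 CPM in the in vitro libraries. The groups were fully apart, and the difference was 1.45 (SE 0.25, adjusted p = 0.000366 by edgeR). WT SET-seq against in vitro gave 0.29, which was not called, and KO against WT gave 1.18, which was. Eed was 320, 259, 302 and 247 CPM against 179, 184, 101 and 68.2 CPM, a difference of 1.11 (SE 0.26, adjusted p = 0.00305). All its KO values lay above the in vitro values, but the 37 °C libraries lay nearer to them, and the call was lost against these alone (0.66) and without the second 300 ng library (0.90). Ezh2 was 260 to 324 CPM in KO and 190 to 407 CPM in vitro (0.02), Rbbp4 0.22, Suz12 -0.41 and Ezh1 -0.72, and none of these was called. With both offsets Suz12 was called lower (-1.02), as it was against the 37 °C libraries alone (-1.04). Suz12 ranged from 179 CPM in a 300 ng library to 1045 CPM in a 37 °C library, so the in vitro group alone spans the KO values.

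Accessory subunits gave 2 calls in 4 tested, both lower, beside 18.7% called lower over all genes, and the edited gene is among them. Besides Aebp2 this was Epop, a partner that links PRC2.1 to Elongin, at 229, 182, 222 and 222 CPM in KO against 366, 374, 617 and 502 CPM in vitro. These groups did not overlap (log2 fold change -1.17, SE 0.22, adjusted p = 0.000714), and Epop was lower than in WT as well (-1.43). The Epop call was lost with the GC offset, where the difference was -0.04, with the length offset (-0.95), and also without KO1 replicate 2 (-0.99), without the first 300 ng library (-0.94) and against the 37 °C libraries alone (-0.76). Jarid2, the other PRC2.2 subunit, was 568, 589, 410 and 425 CPM against 346, 371, 263 and 256 CPM. All 4 KO values were the higher ones, with a difference of 0.67 (SE 0.18, adjusted p = 0.00692) that stayed under the fold threshold, and of 1.28 against WT. Mtf2 was 378 to 744 CPM in KO and 343 to 845 CPM in vitro, with no difference to call (-0.00), though with the GC offset it was called lower (-1.19). Phf1 and Phf19 had too few counts to be tested, at 0.89 to 6.23 CPM in the KO libraries.

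Polycomb repressive complex 1 (PRC1) ubiquitinates histone H2A, often at the same genes. Of 20 tested members, 2 were called higher and 5 lower (15.8 and 18.7% over all genes), with a median of -0.01. Kdm2b, which brings a variant PRC1 to unmethylated CpG islands, was 296, 322, 271 and 238 CPM in KO and 120, 79.6, 84.3 and 70.8 CPM in vitro. Every KO library was above every in vitro library (1.65, SE 0.19, adjusted p = 1.98e-05), and above WT (1.45). Pcgf1, the subunit that defines the KDM2B complex, was lower at 6.87, 9.62, 5.96 and 11.6 CPM against 30.8, 15.9, 31.4 and 34.5 CPM (-1.81, adjusted p = 0.000769), also with no overlap. Pcgf2 (-1.52) and Phc2 (-1.38), both parts of canonical PRC1, were called lower, and both lost the call with the GC offset (-0.97 and -0.52). The groups overlapped for Phc2, and its call was also lost against the 37 °C libraries alone (-0.58), with KO1 alone (-1.39), with KO2 alone (-1.28) and with both offsets (-0.99).

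The DNA methylation genes that were called were all higher. Of 7 tested, 5 were called higher and none lower, beside 15.8 and 18.7% over all genes. Their median was 1.14, beside -0.03 over all genes. Dnmt3a, a de novo DNA methyltransferase, was 235, 229, 188 and 189 CPM in KO and 49.4, 25.2, 36.0 and 40.4 CPM in vitro. The groups were far apart, at 2.42 (SE 0.21, adjusted p = 2.93e-06), and the difference from WT was 3.09. Dnmt3l, its catalytically inactive partner, was 765, 689, 664 and 752 CPM against 283, 296, 375 and 312 CPM (1.14, adjusted p = 0.000152). WT SET-seq lay on the other side, at 93.0 to 94.9 CPM, with -1.87 for WT minus in vitro and 3.04 for KO minus WT. The Dnmt3l rise fell under the fold threshold against the 300 ng libraries alone (0.94). Tet1, which oxidizes methylcytosine, rose by 1.62 and was also high in WT (1.24 over in vitro), and its call was lost with the length offset (0.82) and with both offsets (0.44). Uhrf1, which guides maintenance methylation, rose by 1.16, and missed the fold threshold with KO1 alone (0.94).

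The largest rises included genes of a state that resembles the 2-cell embryo. Only 3 of the 13 genes of the 2-cell-like list could be tested, Zscan4a, Zscan4c and Zscan4d, and all 3 were called higher. At 0 to 5.49 CPM in vitro, they passed the count filter through the KO libraries. Their direction was thus set by the filter, and 3 of 3 is no result about the list. Zscan4c (chr7:11591094-11595896), which marks that state and acts on telomeres, was 159, 194, 130 and 98.8 CPM in the KO libraries and 2.20, 3.98, 4.48 and 2.98 CPM in the in vitro libraries. The WT SET-seq libraries held 7.94, 5.81, 17.8 and 10.8 CPM, so every KO library lay far above every unedited one. The difference was 5.29 (SE 0.30, adjusted p = 2.25e-07) from in vitro and 4.00 from WT. Zscan4a differed by 5.66 and Zscan4d by 5.52, but Zscan4a and Zscan4d are 97.9 and 97.3% identical to Zscan4c over nearly their whole exons, and reads cannot be assigned firmly between them. Gm5039, a gene of unknown function, followed the same pattern at 35.3, 36.4, 27.8 and 18.7 CPM against 0, 0, 0.779 and 0.711 CPM (5.34). It too passed the count filter through the KO libraries. Gm5039 has 1641 exon bases and is 94.9% identical to Gm2022 over 1636 aligned bases, so its reads are uncertain as well.

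Further large rises were found in genes of several kinds. H2ac10, a replication-dependent histone H2A gene, was 82.4, 43.8, 80.5 and 67.6 CPM in KO against 1.1, 0, 0.195 and 0.426 CPM in vitro. It was as high in WT SET-seq (54.3 to 126 CPM), and its log2 fold change of 7.28 in KO stood beside 7.67 in WT. H2ac10 shares 80.0% of its exon bases with 11 near-identical histone genes, so its reads are uncertain. Nlrp4f, an oocyte-expressed NLR family gene, had 88 reads in the KO libraries and 3 in the in vitro libraries, a ratio of 150 (exact 95% interval 49.6 to 741, counting error only). WT held 2.10 to 3.77 CPM of it, below the 15.9 to 29.9 CPM of KO. Enox1, which encodes a cell surface oxidase, was 67.7, 66.3, 65.6 and 50.7 CPM against 0.584 to 2.65 CPM (6.06, SE 0.36), and also rose over WT (1.99). Lin28b, which blocks let-7 maturation, rose by 4.28 with 3.75 in WT, and Kbtbd8, an adaptor for ubiquitin ligation, by 4.27 with 5.19 in WT. The remaining genes of the 12 largest rises were Zfp981 (4.84), Mup6 (4.71) and Gm14124 (4.54).

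The largest falls were mostly also low in WT SET-seq. Ndufa4l2, a mitochondrial protein gene induced by hypoxia, was 3.92, 3.21, 3.98 and 3.56 CPM in KO and 183, 147, 189 and 200 CPM in vitro. WT SET-seq libraries were near the KO values, at 3.19 to 7.51 CPM, so that the log2 fold change was -5.64 for KO and -5.34 for WT. Copz2 (-4.98 in KO, -4.36 in WT), Cdc42ep2 (-4.93 and -4.58), A2m (-4.65 and -4.06) and Tnni1 (-4.57 and -4.06) had the same form. They encode a coatomer subunit, an effector of Cdc42, the protease inhibitor alpha-2-macroglobulin and slow skeletal troponin I. Lama1, a laminin chain of the basement membrane, fell by 4.75 in KO and by 3.06 in WT, and Mapk13, a p38 kinase, fell by 4.59 and 3.19. Tlx2, a homeobox gene, stood at 0.981, 0, 2.98 and 5.34 CPM in KO, at 68.1 to 107 CPM in vitro and between them at 12.5 to 15.6 CPM in WT.

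Other falls were seen against both kinds of unedited library. Nkx6-2, a homeobox gene, was 0.981, 2.14, 0.994 and 0 CPM in KO, 27.5, 25.2, 49.3 and 35.8 CPM in vitro and 35.1, 33.1, 40.4 and 43.2 CPM in WT. No KO library came near an unedited one, and the difference was -5.17 (SE 0.53, adjusted p = 8.42e-06) from in vitro and -5.07 from WT. Ly6g6e, a Ly6 family gene, had 3 reads in KO and 654 in vitro, a ratio of 42.7 (exact 95% interval 14.5 to 207). Nkx6-2 and Ly6g6e share 13 and 11.2% of their exon bases with a neighbouring gene. Bcl3, an IκB family regulator, was 7.85, 3.21, 6.96 and 8.90 CPM against 98.8, 91.5, 93.5 and 107 CPM in vitro and 78.4 to 95.3 CPM in WT. The difference was -3.87 from in vitro and -3.57 from WT. Slc11a1 (-5.39 and -4.07), a metal ion transporter, Gjb5 (-3.67 and -4.08), a gap junction protein, and Pcsk1n (-3.65 and -3.94), a proprotein convertase inhibitor, were also lower than in both, and Trpm1, a cation channel, was -4.62 and -3.53. In the other direction Bnc2, a zinc finger gene, was 75.5, 75.9, 37.8 and 44.5 CPM in KO, 4.39 to 13.3 CPM in vitro and 8.93 to 10.2 CPM in WT (2.94 and 2.72).

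Pluripotency genes went both ways. Of 23 tested genes of core and naive pluripotency, 6 were called higher and 6 lower (15.8 and 18.7% over all genes), and the median was 0.13. Nanog, a core factor, was 929, 1086, 713 and 484 CPM in KO and 301, 314, 186 and 198 CPM in vitro. These were apart (1.67, SE 0.24, adjusted p = 0.000105), but WT SET-seq was higher still at 1212 to 1381 CPM. Esrrb, an orphan nuclear receptor of the naive network, rose by 1.73 in KO and 1.54 in WT. Klf4 was the largest fall, at 60.8, 68.4, 78.5 and 53.4 CPM in KO, 707, 651, 776 and 762 CPM in vitro and 328 to 436 CPM in WT. The KO level was far under both, with -3.51 (SE 0.20, adjusted p = 2.25e-07) from in vitro and -2.47 from WT. Dppa2, a germ and stem cell DNA-binding protein, rose by 2.94 (1.92 in WT), Sall4 by 1.39, Lin28a by 1.55 and Dppa4 by 1.23. Dppa4 missed the fold threshold with KO1 alone (0.99). Sox2 was lower in KO (-1.28) and in WT (-1.50), and was lower in KO2 than in KO1. Klf5 (-1.30 in KO, -1.35 in WT), Tcl1 (-1.31), Tbx3 (-1.07) and Dppa3 (-1.58) completed the falls. Of these, Tbx3 lost its call with KO2 alone (-0.83), against the 37 °C libraries alone (-0.86) and with the GC offset (-0.72). That call was also lost without either KO1 library (-0.98 and -0.91) or either 300 ng library (-0.97 and -0.98). Dppa3 lost its call without KO2 replicate 2 (-1.23), with KO1 alone (-0.72) and with the length offset (-0.80). Klf5 and Tcl1 lost theirs with each offset, and Sox2 with KO1 alone (-0.76) and with both offsets together (-0.93).

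Genes of the primed epiblast and of Nodal signaling rose together, and did so against WT as well. Of 7 tested, 5 were called higher and none lower (15.8 and 18.7% over all genes), with a median of 2.54. Over WT 5 of 7 were higher, beside 13.4% over all genes, with a median of 2.33. Otx2 had few reads outside the KO libraries, so it passed the count filter through them. Otx2, a factor of the formative and primed epiblast, was 28.5, 31.0, 21.9 and 15.1 CPM in KO against 5.49, 1.33, 3.31 and 3.06 CPM in vitro and 2.98 to 5.71 CPM in WT. Each KO library lay above all unedited ones (2.80 from in vitro, SE 0.37, adjusted p = 5.16e-05, and 2.71 from WT). Zic2, a zinc finger factor of the same state, was 113, 98.4, 79.5 and 89.9 CPM against 18.7, 17.2, 12.1 and 15.9 CPM in vitro and 8.60 to 11.3 CPM in WT (2.57 and 3.36). Lefty1, a Nodal target and inhibitor, was 245, 229, 159 and 164 CPM against 23.1, 22.5, 38.4 and 39.9 CPM, a rise of 2.54, while WT SET-seq was lower than in vitro (-1.07). Sall2, a zinc finger gene, rose by 2.70 from in vitro and 2.12 from WT. These 4 genes kept their calls under all 3 offsets.

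Targets of the signals in the medium fell into 2 patterns. Socs3, the feedback inhibitor and direct target of LIF-STAT3 signaling, was 1.96, 5.35, 3.98 and 9.79 CPM in KO, 76.9, 58.3, 71.7 and 83.1 CPM in vitro and 30.7 to 58.6 CPM in WT. It was lowest in every KO library, with -3.79 (SE 0.36, adjusted p = 5.5e-06) from in vitro and -2.86 from WT. Socs3 passed the count filter through the in vitro libraries, which set its direction against them. Stat3 itself fell by 1.14 from in vitro and by 1.63 from WT. With KO1 alone the first value was -1.67, but its call was lost with KO2 alone (-0.69) and against the 37 °C libraries alone (-0.86). That call was also lost without KO1 replicate 1 (-0.999), without KO1 replicate 2 (-0.86), without the second 300 ng library (-0.97) and with the GC offset (-0.83). Lifr, a receptor chain for LIF, rose by 1.03, and lost its call without KO1 replicate 2 (0.98), without either 300 ng library (0.89 and 0.90) and with each offset. Id3, a target of BMP signaling, was 73.6, 71.6, 66.6 and 64.1 CPM in KO and 3.29, 2.65, 6.43 and 6.40 CPM in vitro. WT SET-seq held more than either, 136 to 165 CPM, so Id3 was 3.56 over in vitro in KO and 4.60 in WT. With few in vitro reads, Id3 passed the count filter through the KO libraries, which set its direction. The whole LIF-STAT3 and BMP-Id list gave 2 higher and 2 lower of 9 tested, beside 15.8 and 18.7% over all genes.

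Several Wnt targets fell in KO and in WT SET-seq alike. Of 13 tested Wnt pathway genes, 2 were called higher and 4 lower (15.8 and 18.7% over all genes), with a median of -0.42. In WT against in vitro none was higher and 7 of 14 were lower (20.1 and 17.3% over all genes), with a median of -1.13. Cdx1, a homeobox gene and direct Wnt target, was 40.2, 46.0, 34.8 and 16 CPM in KO, 203, 190, 186 and 255 CPM in vitro and 21.5 to 33.6 CPM in WT. Its KO and WT ranges overlapped, and the differences from in vitro were -2.66 (SE 0.27) and -3.06. Sp5, another direct target, differed by -2.48 in KO and -3.40 in WT, and Notum, a secreted Wnt inhibitor, by -2.39 and -2.49. T (Brachyury), a mesoderm gene that Wnt induces, was 9.81, 5.35, 2.98 and 0 CPM against 67.6 to 85.7 CPM in vitro and 1.74 to 7.27 CPM in WT, with -4.09 in KO and -4.48 in WT. T passed the count filter through the in vitro libraries, which set its direction. Apc, a scaffold of the β-catenin destruction complex, rose by 1.44. It lost that call with KO2 alone (1.13), with the length offset (0.74) and against the 37 °C libraries alone (0.84).

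Most developmental genes that PRC2 silences had few reads in both groups. Of 33 lineage factors on the Polycomb list only 4 had enough counts to be tested, with T lower and Eomes higher (18.7 and 15.8% over all genes). Eomes, a factor of early mesendoderm and trophoblast, was 29.4, 28.9, 37.8 and 36.5 CPM in KO, 15.4, 5.30, 6.04 and 8.95 CPM in vitro and 5.62 to 12.1 CPM in WT. All KO values were above all unedited ones (1.91 from in vitro, SE 0.32, adjusted p = 0.000338, and 2.11 from WT). Since Eomes passed the count filter through the KO libraries, its direction against in vitro is no independent support. Of 39 Hox genes 1 was tested, Hoxc13, at 2.94, 0, 3.98 and 8.90 CPM against 16.5 to 19.9 CPM (-2.14). T and Hoxc13 passed the count filter through the in vitro libraries, so the filter set their direction. For the genes not tested, a change was not detectable at this depth.

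**Figure D4:**
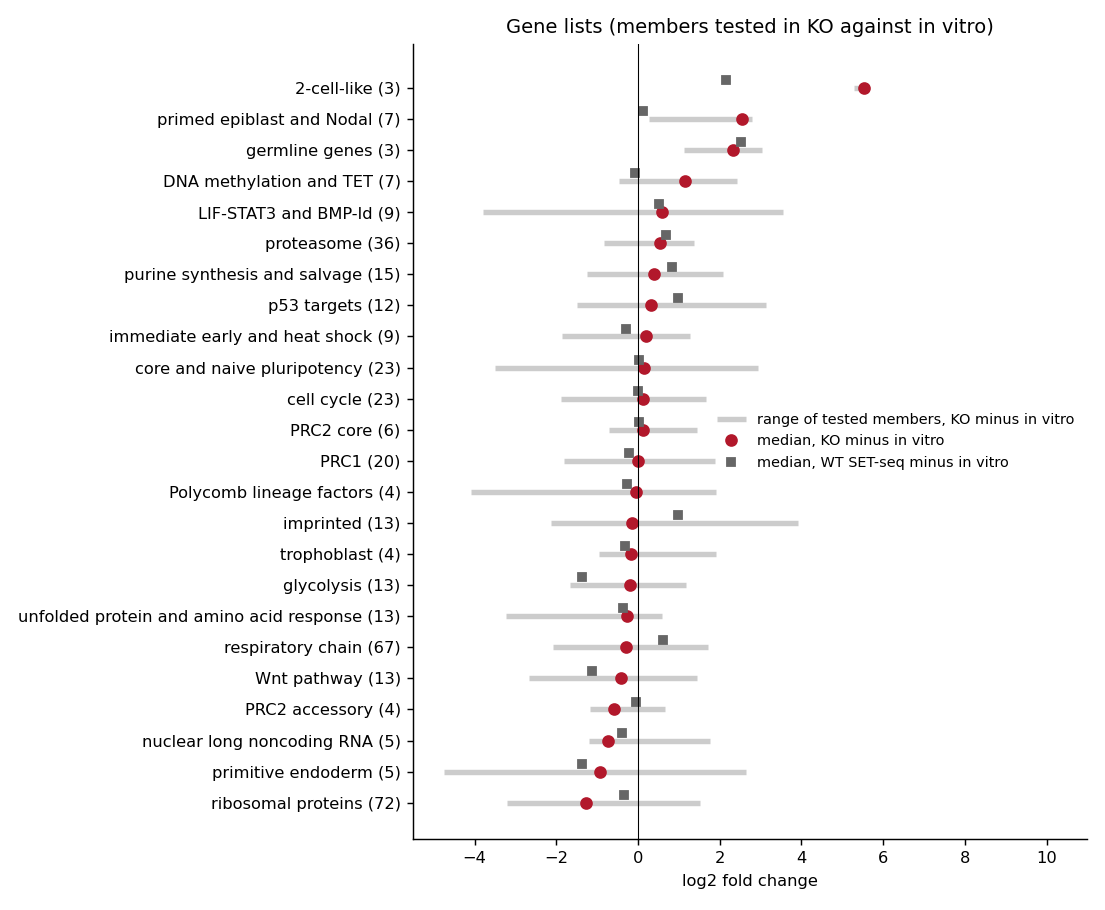
Median (red points) and range (grey bars) of the log2 fold change, KO over in vitro, of the tested members of each list, with the median for WT SET-seq over in vitro as grey squares. The 2-cell-like, primed epiblast and DNA methylation lists lie further right in KO than in WT SET-seq, and ribosomal protein genes lie at -1.27. The 2-cell-like members tested had few reads in vitro, so the count filter set their direction.

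Imprinted and germline genes were called in KO and in WT. Of 13 imprinted genes tested 4 were higher and 3 lower, beside 15.8 and 18.7% over all genes. Plagl1, a zinc finger growth regulator, was 49.1, 68.4, 66.6 and 33.8 CPM in KO and 1.1, 7.96, 2.53 and 3.62 CPM in vitro, but 163 to 191 CPM in WT (3.92 in KO, 5.58 in WT). Plagl1 passed the count filter through the KO libraries, which set its direction. Impact, a regulator of GCN2, rose by 3.05 and 3.13, and Peg10, a retrotransposon-derived gene, by 2.10 and 3.05. Gnas, which encodes a stimulatory G protein, fell by 2.14 and 1.67. Germline genes had 2 calls in 3 tested, both higher. Tex19.1, which acts against retrotransposons, rose by 3.03 (3.28 in WT). At 2.65 to 6.59 CPM in vitro, Tex19.1 passed the count filter through the KO libraries. Dazl, an RNA-binding protein of germ cells, rose by 2.32 (1.29 in WT), and its rise shrank to 0.18 with the GC offset.

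For the unfolded protein and amino acid response, none of 13 tested genes was higher and 5 were lower, beside 15.8 and 18.7% over all genes. Ddit3, which encodes the factor CHOP, was 0.981, 2.14, 3.98 and 6.23 CPM in KO against 36.2, 23.9, 31.9 and 33.0 CPM in vitro (-3.23), and 10.5 to 13.2 CPM in WT. Ddit3 passed the count filter through the in vitro libraries, which set its direction. Atf4, the central factor of that response, fell by 1.92, Trib3 by 1.61 and Xbp1 by 1.46. Atf4 and Xbp1 were also lower than in WT (-1.09 and -1.64). Trib3 lost its call with KO2 alone (-1.13), against the 37 °C libraries alone (-0.93) and with the GC offset (-0.91). Purine synthesis and salvage gave 5 higher and 2 lower of 15. Pfas, an enzyme of de novo purine synthesis, was 499, 488, 461 and 383 CPM in KO, 99.9, 133, 98.2 and 94.6 CPM in vitro and 143 to 201 CPM in WT. It was higher than in both (2.09, SE 0.17, and 1.54), whereas Pnp, a salvage enzyme, rose by 1.45 in KO and 1.88 in WT. Gmps, which makes GMP, rose by 1.72 and lost its call with the GC offset (0.82), as did Adss (1.32 and 0.89). Adss was also not called with KO1 alone (1.18) or against the 37 °C libraries alone (0.74).

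Among p53 targets, 2 of 12 were higher and 1 lower. Over all genes 15.8% were called higher and 18.7% lower, and the lists here stand beside these shares. Eda2r, a receptor of the tumor necrosis factor family, rose by 3.14 and Trp53inp1, a stress-induced autophagy gene, by 2.12, with 4.08 and 3.38 in WT. The Trp53inp1 call was lost with KO2 alone (1.55) and with both offsets (0.81). Immediate early and heat shock genes gave 1 higher and 2 lower of 9. Junb and Jun, subunits of AP-1, fell by 1.87 and 1.84, but Junb was higher in WT than in vitro (1.16) and Jun was lower (-3.55). Junb lost its call with the GC offset (-0.97). Glycolysis gave 1 higher (Hk2, 1.19, and 0.83 and not called with the length offset) and 1 lower (Pfkl, -1.68) of 13, with a median of -0.19. In WT against in vitro this list gave 2 higher and 10 lower of 14 (20.1 and 17.3% over all genes), with a median of -1.37. Cell cycle genes gave 4 higher and 1 lower of 23, the higher share being near that of all genes. Among them were Ccnb1 (1.65 in KO, 1.43 in WT) and Mcm5 (1.32 and 1.34). The proteasome gave 5 higher and none lower of 36, with a median of 0.54 (0.69 in WT). Its share of higher calls was not above that of all genes. Psmd11, a subunit of the regulatory particle, was 242, 260, 280 and 277 CPM against 93.5 to 108 CPM (1.38), and 208 to 318 CPM in WT.

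Lists of other cell types and of nuclear RNA held few tested genes. Of 5 primitive endoderm genes tested, 1 was higher and 2 lower. Over all genes 15.8% were called higher and 18.7% lower, and the other lists here stand beside the same shares. Col4a1, a collagen of the basement membrane, rose by 2.63 (1.71 in WT), while Lama1 and Sparc, a matrix glycoprotein, fell, Sparc by 1.41 (and 1.18 in WT). Of 4 trophoblast genes tested 1 was higher, which was Eomes. The single fibroblast gene tested, Pdgfrb, was -1.36 with overlapping groups. Its call was lost without KO1 replicate 2, either KO2 library (-1.14 and -1.19), the second 300 ng library (-1.26) or the first 37 °C library (-1.18). It was also lost with KO1 alone (-0.98), against the 37 °C libraries alone (-1.47) and with the GC offset (-0.80). Of 5 nuclear long noncoding RNAs, Kcnq1ot1 was higher (1.76) and Firre lower (-1.21), both with overlapping groups. The Kcnq1ot1 difference was -0.46 with both offsets, and its call was lost with KO2 alone (1.25) and against the 37 °C libraries alone (1.02). The Firre call was lost with KO1 alone (-0.75), without KO1 replicate 2 (-1.10) and without either KO2 library (-1.06 and -0.92). Of 116 small nucleolar and Cajal body RNAs 1 was tested, Snora65 (-4.71 in KO, -3.70 in WT), and none of 9 replication-dependent histone genes on a list was.

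Most ribosomal protein genes that were tested fell. Of 72 tested, 47 were called lower and 2 higher, beside 18.7% called lower over all genes, and their median was -1.27. In WT against in vitro 15 of 80 were lower, near the 17.3% over all genes, with a median of -0.34. In KO against WT 32 of 75 were lower, beside 15.6% over all genes, with a median of -0.88. Rps2 was 130, 147, 181 and 268 CPM in KO, 1304, 1098, 1706 and 1499 CPM in vitro and 873 to 1534 CPM in WT. The KO libraries were well below both (-2.98, SE 0.27, adjusted p = 3.61e-06, and -2.65). Rpl10a (-3.20), Rpl12 (-3.06) and Rpl35 (-2.83) followed, with -0.84, -1.28 and -1.87 in WT. Of the 4, all kept their calls under the offsets, but the list's median shrank to -0.57 with the length offset and to -0.45 with both. Genes of the respiratory chain gave 13 lower and 2 higher of 67, the lower share being near that of all genes. Their median of -0.29 turned to 0.49 with the length offset and 0.57 with both. In WT against in vitro 28 of 70 were higher and none lower, beside 20.1 and 17.3% over all genes. Ndufs7 and Ndufs1, both subunits of complex I, were called in opposite directions (-2.07 and 1.71), and the Ndufs7 call was lost with both offsets (-0.72).

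Abundant genes carried some of the same differences. Lars2, a mitochondrial leucyl-tRNA synthetase, was 18213, 15431, 28637 and 30684 CPM in KO, 1591, 1701, 2281 and 1492 CPM in vitro and 10681 to 16025 CPM in WT. Its log2 fold change was 3.70 (SE 0.28, adjusted p = 1.19e-06 by edgeR) in KO and 2.85 in WT. By the study's methods the reference genome left out mitochondria, and near copies were searched only among exons of the counted genes. Whether mitochondrial RNA adds to the reads counted for Lars2 was not tested. Tuba1b and Actb, the α-tubulin and β-actin genes, rose by 1.60 and 1.83, against 0.13 and 0.91 in WT, though Tuba1b shares 86.9% of its exon bases with near-identical tubulin genes. Eef1a1, a translation elongation factor, was 7140, 7257, 11081 and 11622 CPM against 20310 to 23084 CPM in vitro, and lower again in WT at 5014 to 5931 CPM (-1.21 in KO, -2.07 in WT). It too has near copies over 97.0% of its exon bases, and it lost its call against KO2 alone (-0.85) and with the length offset (-0.80). Rack1 (-1.75), a ribosome-bound scaffold, and Rps3 (-1.90), a ribosomal protein, had KO minus WT values of -0.87 and -1.08. Rack1 lost its call against in vitro with both offsets (-0.96).

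By chromosome, the median log2 fold change relative to that of all genes was 0.49 on the X (250 genes), 0.26 on chromosome 8 (511 genes), -0.27 on chromosome 7 and between those last values on the others. With the GC offset, chromosome 8 stood out most, at 0.45, with 26.4% of its genes higher and 9.0% lower, while the X came to 0.22 and the others to between -0.18 and 0.06. WT SET-seq against in vitro gave 0.26 on chromosome 8 and 0.49 on the X, and 0.43 and 0.14 with the GC offset. KO against WT was -0.03 on chromosome 8 (-0.02 with the offset), and was lowest on chromosomes 11 (-0.29, and -0.22 with the offset), 6 (-0.27 and -0.28) and 1 (-0.19 and -0.28). These medians are descriptions without a test, since genes of a chromosome are not replicates.

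**Figure D5:**
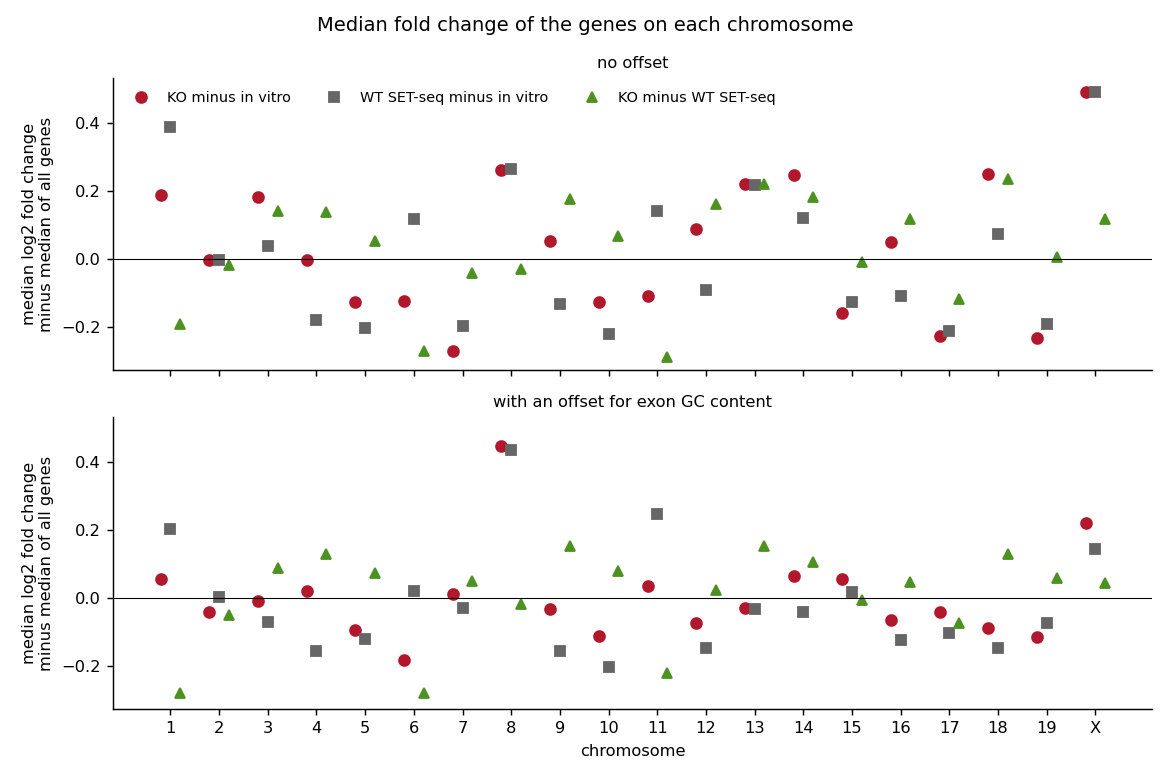
Median log2 fold change of the genes on each chromosome, relative to the median of all genes, without an offset and with the exon GC offset, for KO minus in vitro, WT SET-seq minus in vitro and KO minus WT SET-seq. On chromosome 8 the first 2 comparisons lie at 0.45 and 0.43 with the offset and the last at -0.02.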

How the data were processed

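The deposited files hold read counts per gene, which the authors made from oligo-dT primed, Tn5-tagmented cDNA. Per the file headers and the submitters' processing notes, reads were trimmed with Trim Galore 0.6.4, aligned with STAR 2.5.4b to mm9 and counted without strand by featureCounts, version 2.0.0 in 50 libraries and 2.0.1 in the 4 KO libraries, without multi-mapping or multi-overlapping reads. Gene and antisense reads therefore cannot be told apart. Of each file the counts of 25209 genes were used. The members and gene lists were chosen with earlier results of these data known.

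Rn45s was removed, and CPM were computed from the rest. Each of the 3 comparisons (4 libraries against 4) was fitted with edgeR 4.0.16 (R 4.3.3) on the counts, with TMM scaling, filterByExpr, the quasi-likelihood test and Benjamini-Hochberg adjustment over all genes tested, called at an adjusted p under 0.05 and a log2 fold change above 1 in size. The test was tested on simulated data: for KO against in vitro, with 8436 genes, 78% of genes changed 3-fold, 98% of those changed 4-fold and 0.0607% of unchanged genes were called. The simulation drew the 8 libraries independently, without the likeness between the 2 libraries of a condition. Its rates may therefore not hold for these groups. In each direction, the 12 largest called changes (at least 200 exon bases, a mean of at least 20 CPM on the higher side, no overlap of libraries), the 6 most abundant called genes, the 6 genes with the largest change also called against WT, and up to 4 called members of each list were named, with all PRC2 members. Guides were matched to NCBIM37, and exon copies found with blastn 2.17.0 (at least 95% identity over 100 bases) and bedtools 2.31.1. The 8 libraries held 1178008 to 17042569 counts, which limits low genes, and intervals cover counting error only. The study calls the KO experiments and the 37 °C in vitro libraries independent, but the labels name no separate cultures, so p-values may measure partly technical spread. The same replicate numbers do not pair libraries. Alternatives covered scaling, DESeq2 1.42.0, filters, Rn45s, the call rule, the libraries used, thinning, and offsets for exon length and (added after seeing the data) exon GC content. The chromatin libraries and single-cell tables were not used here. One gene that the rule names is not reported here.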

Additional observations from a re-analysis of the deposited data

Results flagged for a closer look

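In 264 groups of 4 libraries (132 named genes, KO and in vitro), the highest or lowest library stood apart by Dixon's test in 16 (6.06%), where chance gives about 1 in 20. In the KO group the library apart was KO2 replicate 2 for Enox1 (lowest, 50.7 CPM), Kbtbd8 (lowest, 14.2 CPM) and Phf1 (lowest, 0.890 CPM), KO2 replicate 1 for Xbp1 (highest, 38.8 CPM), KO1 replicate 1 for Ly6g6e (lowest, 0 CPM) and Rpl10a (highest, 16.7 CPM), and KO1 replicate 2 for Epop (lowest, 182 CPM) and Hprt (highest, 2.14 CPM). In the in vitro group it was the first 37 °C library for Kbtbd8 (highest, 7.69 CPM), Peg10 (highest, 17.6 CPM) and Tex19.1 (highest, 6.59 CPM), the second 37 °C library for Pcgf2 (lowest, 126 CPM), Dppa2 (highest, 31.8 CPM), Xbp1 (lowest, 63.6 CPM) and Pfas (highest, 133 CPM), and the first 300 ng library for Hprt (highest, 0.195 CPM).

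The 2 clones differed in 264 of 8655 genes (3.05%), 180 higher and 84 lower in KO1, in edgeR's quasi-likelihood test with the 4 conditions as terms. Of the named genes these were Zfp981 (KO1 minus KO2 2.58, adjusted p = 9.36e-07), Pcsk1n (6.89, adjusted p = 0.0281, with no reads in KO2), Dppa3 (2.75, adjusted p = 0.00629), Dazl (1.31, adjusted p = 0.0149), Sox2 (1.22, adjusted p = 0.000369) and Aebp2 (-1.45, adjusted p = 0.0118). The cause of these differences was not tested.

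Called in opposite directions against the same in vitro libraries in KO and in WT SET-seq were Dnmt3l, Lefty1 and Junb, with KO minus WT at 3.04, 3.64 and -3.00.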

How the results depend on the processing

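The 24 genes with the largest rises and falls kept their direction and call under every alternative run for them (23 for Gm14124 and Lin28b, 24 for the others). They were picked for large changes without overlap of libraries, so this stability follows partly from the choice. DESeq2 called 2103 genes higher, a call on adjusted p alone 2127, and no filter on low counts 2837 higher and 2552 lower (main values 1370 and 1618), as well as 3398 higher in WT than in vitro and 2148 lower in KO than in WT. Leaving out single libraries gave 1335 to 1706 higher and 1394 to 1844 lower genes. Only 2001 of the 2988 calls (67%) held against the 37 °C libraries alone. Aebp2 lost its call against the 300 ng libraries alone (-0.81), with KO2 alone (-0.58) and on leaving out single libraries (range -1.54 to -0.88).

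The genes that changed sign were not called, except Kcnq1ot1 (1.76, and -0.46 with length and GC offsets). Ezh2 turned with no filter (-0.11), against the 37 °C libraries (-0.33), with longer in vitro times added (-0.18), with KO1 alone (-0.039), with the GC offset (-0.28) and with both offsets (-0.10), and Rbbp4 against the 37 °C libraries (-0.17), with the GC offset (-0.16) and with both offsets (-0.30). Suz12 turned against the 300 ng libraries (0.58). Mtf2 turned with DESeq2 size factors (0.031), total counts (0.022), DESeq2 (0.0051), Rn45s kept (0.057), 4 conditions as terms (0.014), the 300 ng libraries (0.37), KO1 alone (0.26) and thinning (0.0047). Without single libraries the ranges were -0.10 to 0.21 (Ezh2), -0.70 to 0.076 (Suz12) and -0.17 to 0.19 (Mtf2). Mtf2 was called lower with the GC offset (-1.19) and with both (-1.37), and Suz12 with both offsets (-1.02) and against the 37 °C libraries (-1.04). The cause was not tested.

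With the replicate block, 1337 genes were higher and 1606 lower, and 2928 of the 2988 calls held. Same-numbered libraries did not deviate together (r from -0.32 to 0.16), so the numbers do not pair them. Low counts left most lineage, Hox and germline genes untested.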
